A study of Mus musculus with 15 samples.

Results

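The cytosolic ribosome of mouse brown adipose tissue was described through the transcripts of its protein genes. Members were the genes of the deposited expression table whose symbols follow the naming of ribosomal proteins (Rpl or Rps and a digit, Rplp0 to Rplp2, and Rpsa), without the ribosomal S6 kinases and without pseudogenes. Of 16774 genes, 99 carried such a symbol, and 10 S6 kinase genes and 2 pseudogenes were left out, which gave 87 members. Of these, 46 were canonical proteins of the large subunit and 31 of the small subunit, 9 were copies or tissue variants of a canonical protein (Rpl3l, Rpl7l1, Rpl22l1, Rpl36al, Rpl39l, Rps27l, Rps27rt, Rpl37rt and Rpl32l), and Rps19bp1 codes for a binding partner of Rps19 that is not itself a ribosomal protein. The ribosomal proteins Fau and Rack1 have other symbols and are given separately.

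Bulk RNA sequencing compared brown adipose tissue of 7 mice given bisphenol S (BPS, an industrial replacement for bisphenol A) with that of 8 mice given vehicle (Veh). Per its title, the series asks how an environmental dose of BPS bears on brown fat and aging. Genotype, strain, sex, age, dose, route and duration are not given in the sources used here, and no treatment or allele common to both groups was named. Libraries are called by group and by the replicate number of their titles, in which BPS has no replicate 7.

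Each ribosome holds a single copy of nearly every ribosomal protein, and the proteins are made in balanced amounts and joined to ribosomal RNA in the nucleolus. Their mRNAs are short, abundant and present in almost every cell type, and in mammals most begin with a run of pyrimidines, the terminal oligopyrimidine (TOP) motif, through which the kinase mTORC1 controls their translation. Transcript levels therefore describe the supply of ribosomal protein mRNA and not the rate of translation.

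Several members have a near-identical copy elsewhere in the genome, and their sequences are shown because they set how far the values of a gene and its copy can be told apart. The coding sequences of Rps27 (chr3:90212667-90213648) and its retrotransposed copy Rps27rt (chr9:114982366-114982739) were identical at 255 of 255 bases, and both genes therefore have this start of the coding sequence (bases 1 to 90, minus strand, GRCm38, GENCODE annotation), in which no letter is in capitals because none differs.
Rps27: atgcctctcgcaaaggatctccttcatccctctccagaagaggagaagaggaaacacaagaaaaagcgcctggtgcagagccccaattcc
The coding sequences of Rpl34 (chr3:130726827-130730398) and the pseudogene Rpl34-ps1 on chromosome 6 were identical at 352 of 354 bases, and a stretch with 1 of the 2 differences, in capitals, is shown (coding bases 43 to 132, Rpl34 on the minus and Rpl34-ps1 on the plus strand).
Rpl34: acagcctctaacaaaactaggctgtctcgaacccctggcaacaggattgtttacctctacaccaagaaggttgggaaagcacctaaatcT
Rpl34-ps1: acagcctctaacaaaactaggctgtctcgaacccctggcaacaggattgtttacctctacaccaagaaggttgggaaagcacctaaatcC
By contrast, Rpl3 (chr15:80077781-80083406, minus strand) and its striated muscle variant Rpl3l (chr17:24727826-24736143, plus strand) were identical at 74.8% of aligned coding bases. In the stretch shown (coding bases 856 to 945 of each) 34 of 90 bases differ, in capitals.
Rpl3: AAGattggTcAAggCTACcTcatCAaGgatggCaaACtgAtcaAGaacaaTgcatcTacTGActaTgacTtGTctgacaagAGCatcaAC
Rpl3l: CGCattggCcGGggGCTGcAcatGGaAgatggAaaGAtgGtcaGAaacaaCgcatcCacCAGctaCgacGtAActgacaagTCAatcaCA
Rpl37 and Rpl37rt were identical at 99.7% and Rpl32 and Rpl32l at 97.2% of aligned coding bases, against 87.9% for Rpl36a and Rpl36al, 85.3% for Rpl39 and Rpl39l, 76.1% for Rps27 and Rps27l, and 75.0% for Rpl22 and Rpl22l1. The levels of Rps27rt, Rpl37rt, Rpl32l and Rpl34-ps1, and in part those of their parent genes, are therefore uncertain.

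The promoters of the canonical genes are shown for the pyrimidine run at the start site that the TOP motif describes. RefSeq promoters (GRCm38.p6, 250 bases before to 50 after the annotated start) were matched for 57 of the 77 canonical genes. The letters CTTTC were found on the sense strand within 50 bases of an annotated start in 31 of 57 genes (54.4%), against 14.6% of all 27025 genes of the same table. In the windows below, which run from 15 bases before to 15 after the start, CTTTC is in capitals. The 4 were picked as examples from the genes that hold it.
Rpl28, chr7:4792950-4792979, plus strand: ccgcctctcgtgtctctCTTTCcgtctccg
Rpl38, chr11:114668565-114668594, plus strand: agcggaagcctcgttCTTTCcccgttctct
Rps10, chr17:27635230-27635259, minus strand: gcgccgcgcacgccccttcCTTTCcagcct
Rplp2, chr7:141447636-141447665, plus strand: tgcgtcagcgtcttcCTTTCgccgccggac
The related letters CTTCC lay in the same span in 45.6% of canonical genes, against 22.2% of all genes. CCGGAAG, the core of ETS family sites, was found on either strand anywhere in the promoter in 42.1% of canonical genes, against 9.93% of all genes. Its reverse complement contains CTTCC, so these 2 counts overlap. TATAAA on the sense strand in the 50 bases before the start was found in none of the 57 genes, against 3.15% of all genes. These are matches of letters and not measured binding sites.
Rps27 and its copy Rps27rt also shared letters around the start, 14 of them, shown in capitals in the same 30-base window.
Rps27, chr3:90213634-90213663, minus strand: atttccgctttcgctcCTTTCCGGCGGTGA
Rps27rt, chr9:114982725-114982754, minus strand: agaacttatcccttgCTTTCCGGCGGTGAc

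The tissue label was checked first. Ucp1, the uncoupling protein of brown fat, was at 82.3 to 1960 FPKM (fragments per kilobase of transcript, scaled to the size of the library) in BPS and 358 to 2321 FPKM in vehicle libraries, lowest in BPS replicate 4. FPKM summed to between 756556 and 920855 over the 15 libraries, and the depth in reads is unknown. Summed levels of 13 skeletal muscle markers, all of them in the table and with Myh2 and Pvalb at 0 in at least 1 library, ranged from 99.7 to 13798 FPKM in BPS and from 293 to 76502 FPKM in vehicle libraries, and vehicle replicates 2, 6 and 8 were the highest. BPS replicates 4, 5, 6 and 8 stood apart. Their Y-linked transcripts (Eif2s3y, Ddx3y, Uty and Kdm5d, summed) were at 0.529%, 49.0%, 73.2% and 32.0% of the vehicle mean, against 80.4% to 117% in each of the other 11 libraries. Their summed macrophage markers, 8 genes, none of them at 0, were at 499 to 800 FPKM, against 264.8 to 318 FPKM in BPS replicates 1 to 3 and 270 to 406 FPKM in vehicle. Their summed white adipocyte markers, 7 of 8 in the table and Hoxc9 at 0 in at least 1 library, were at 2509 to 6059 FPKM, against 434 to 1646 FPKM in BPS replicates 1 to 3 and 609 to 2641 FPKM in vehicle. Kdm6a, which is expressed from both X chromosomes of female cells, was at 6.83 to 9.92 FPKM in these 4, against 4.55 to 4.66 FPKM in BPS replicates 1 to 3 and 3.84 to 5.39 FPKM in vehicle. Whether these 4 libraries hold RNA of animals of another sex or strain, or a mixture, was not tested, and every mean over the 7 BPS libraries includes them. The part of these differences in the results was not tested. Results are therefore also given for BPS replicates 1 to 3 against all vehicle libraries.

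Ribosomal protein genes were among the most abundant transcripts of the tissue. By the median over all libraries, 29 of the 77 canonical genes were among the 100 genes of highest FPKM, and 72 were among the highest 500. The most abundant was Rplp2, a protein of the ribosomal stalk, at 3455 to 5866 FPKM in BPS (median 4596) and 3227 to 5875 FPKM in vehicle libraries (median 4268). Rps27, Rpl41 and Rps15 were also among the 5 highest, with BPS medians of 4586, 4153 and 3362 FPKM and vehicle medians of 4119, 4291 and 3228 FPKM. Neighbours in this order lay within the spread of the libraries. Levels ran over a wide range although the proteins are needed in equal number: Rps6, the substrate of S6 kinase, was listed at 35.7 to 49.4 FPKM in BPS and 35.5 to 47.7 FPKM in vehicle libraries, Rps15a had medians of 63.5 FPKM in BPS and 63.6 FPKM in vehicle, and Rps20 had medians of 122.7 FPKM in BPS and 125.2 FPKM in vehicle. The last 2 were chosen after their values were seen. Reads shared with further copies of these genes were not analysed here, so these low levels are uncertain.

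As a class, ribosomal protein transcripts took 13.8% ± 0.787 of the FPKM sum in BPS libraries (SD, n = 7) and 12.6% ± 1.31 in vehicle libraries (SD, n = 8), a difference within the spread of the vehicle libraries. The share was 13.8%, 14.2%, 14.1%, 14.0%, 12.96%, 12.7% and 14.98% in BPS replicates 1, 2, 3, 4, 5, 6 and 8. It was 13.3%, 13.8%, 14.1%, 13.6%, 10.9%, 12.6%, 10.7% and 11.9% in vehicle replicates 1 to 8. The groups overlapped: vehicle replicates 5 to 8 were below every BPS library, and vehicle replicates 1 to 4 lay inside the BPS range. Both subunits moved together, since the summed level of the large subunit genes over that of the small subunit genes was 1.23 ± 0.0148 in BPS and 1.25 ± 0.0190 in vehicle (SD, n = 7 and n = 8).

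**Figure D1:**
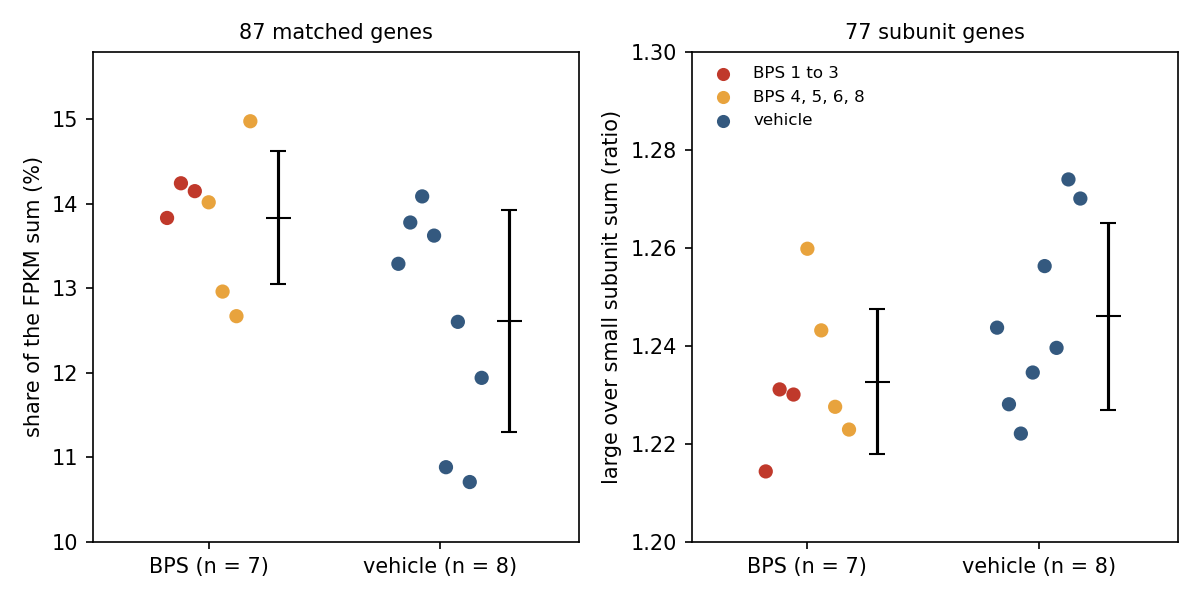
Each point is 1 library, with BPS on the left of each panel, and black marks give the mean and SD of the group. The left panel shows the share of the FPKM sum held by the 87 matched genes, with an axis that starts at 10%, and the right panel the ratio of the summed large to the summed small subunit genes; shares of 10.7% to 11.9% are seen in 3 vehicle libraries and in no BPS library, while the ratio stays between 1.21 and 1.27 in all 15.

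Libraries differed from each other more than the groups did, and the canonical genes mostly moved as a block. Against the vehicle mean of each gene on the log2(FPKM + 1) scale, the median over the members was 0.084, 0.21 and 0.22 in BPS replicates 1, 2 and 3, -0.037, -0.036 and -0.010 in BPS replicates 4, 5 and 6, and 0.24 in BPS replicate 8. It was 0.092, 0.15, 0.20 and 0.058 in vehicle replicates 1 to 4 and -0.19, -0.013, -0.18 and -0.12 in vehicle replicates 5 to 8. In vehicle replicate 8 only 5 of 87 members were above the vehicle mean, and in vehicle replicate 3 there were 80. In BPS libraries the lowest count was 36 in replicate 4 and the highest was 81 in replicate 2. Because the members of a library share this offset, their counts and medians are not independent observations. Within groups the coefficient of variation had a median of 10.3% in BPS and 12.8% in vehicle over the 77 canonical genes. It was 21.6% and 20.3% over 500 other genes. These were the other tested genes with a known coding length and a mean of at least 205 FPKM. They share only this floor and were not matched in level to the canonical genes, which had a median of 1247 FPKM.

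**Figure D2:**
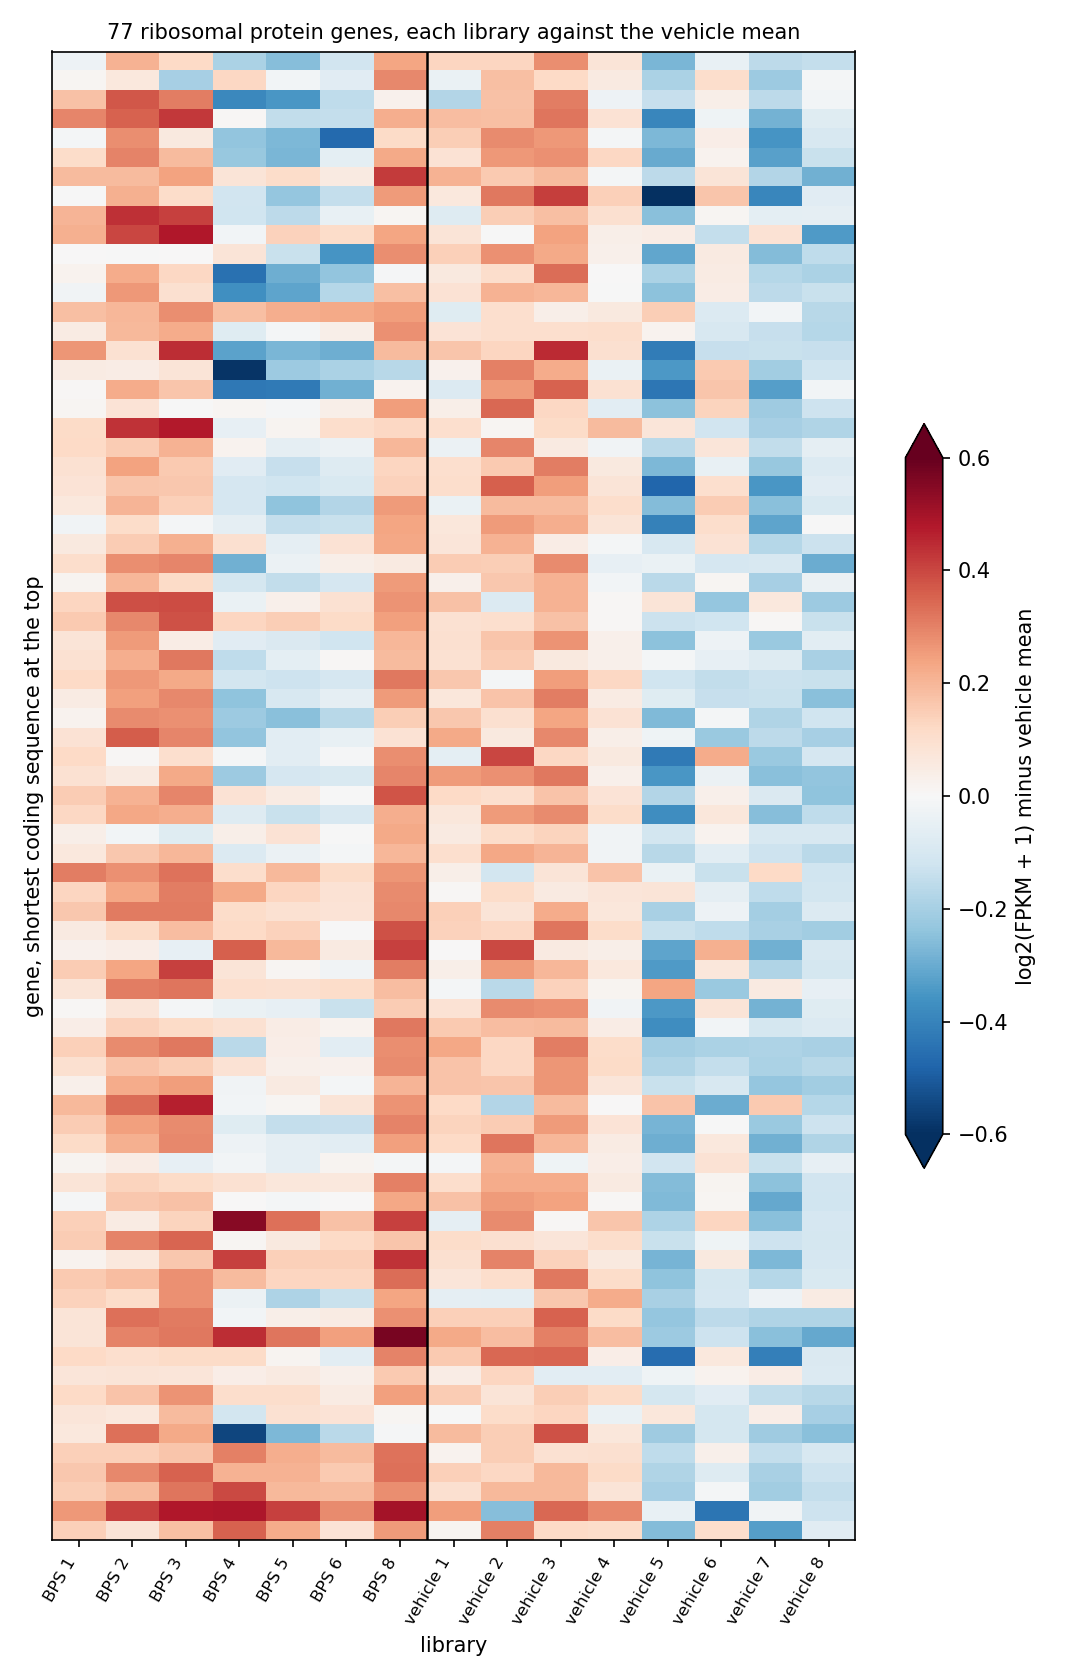
Each cell is the log2(FPKM + 1) of 1 canonical gene in 1 library minus the vehicle mean of that gene, with BPS libraries left of the black line and genes ordered by coding length, the shortest (Rpl41, 78 bases) at the top. Whole columns are red or blue, as in BPS replicate 8 (median 0.24 over the members) and vehicle replicates 5 and 7 (-0.19 and -0.18), and in BPS replicates 4 to 6 the short genes at the top are mostly blue and the long genes at the bottom mostly red.

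Tested gene by gene, none of the 87 members passed an adjusted p of 0.05 in either direction (limma, with Benjamini-Hochberg adjustment over 12156 genes), where 0.346% of all tested genes were called higher and 0.0658% lower. All 87 passed the filter of 1 FPKM in at least 7 libraries. At an unadjusted p under 0.05, 14 members were higher and 0 lower, a share of 16.1% that lies beside 16.4% of all tested genes for higher and 6.7% for lower. The direction was more one-sided: 68 of 87 log2 changes were positive, with a median of 0.086, against 58.5% positive and a median of 0.046 over all tested genes. Among the canonical genes 65 of 77 were positive, 38 of 46 in the large subunit (median 0.11) and 27 of 31 in the small subunit (median 0.069). For 22 of the 77, every BPS library was above the vehicle mean (28.6%, against 12.8% of all tested genes), and for 0 every BPS library was below it (against 6.89%). Another scaling moved these values: 59 members were positive (median 0.045) after median scaling, where all tested genes had 50.9% positive and a median of 0.0043, and 77 were positive both after quantile normalization (median 0.16, against 55.6% and 0.027) and with FPKM rescaled to an equal sum (median 0.14, against 66.7% and 0.097). The 14 members became 7 after median scaling (8.05%, against 12.2% of all tested genes), 25 after quantile normalization (28.7%, against 14.5%) and 26 with FPKM rescaled (29.9%, against 19.8%), and 0 were lower in each, against 9.62%, 7.89% and 4.39% of all tested genes in the same order. Thus whether the members exceed the share of all genes turned with the scaling. The 14 members became 9 without BPS replicate 8, where the share of all tested genes was not counted. In the authors' deposited table, 1 member was higher and 0 lower at a q under 0.05, where 3.16% of its genes were higher and 2.57% lower. That table had 45 of 87 members positive, with a median of 0.0016.

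Without BPS replicates 4, 5, 6 and 8, the direction was more one-sided still. Of 87 members, 81 were positive with a median of 0.16, against 51.9% positive and a median of 0.0085 over the 11885 genes tested in that fit. All 31 small subunit genes and 44 of 46 large subunit genes were positive. Again 0 members were called either way (limma, adjusted p), against 0.278% of genes called higher and 0.00841% lower. At an unadjusted p under 0.05, 16 members were higher (18.4%, against 5.2% of all tested genes) and 0 lower (against 2.88%). In 6 canonical genes, among them Rps26, Rpl29, Rpl14, Rpl19 and Rpl37, all 3 BPS libraries lay above all 8 vehicle libraries, a share of 7.79% against 1.94% of all tested genes, and 0 lay below all of them, against 0.926%. Rpl14, Rpl19 and Rpl37 were named after their values were seen. A muscle score, the mean log2(FPKM + 1) of the 13 muscle markers, was also used as covariate. With it 73 of 87 members were positive with a median of 0.096, and 0 were called. At an unadjusted p under 0.05 (limma) 13 members were higher, all of them canonical. The 1 lower member was Rps19bp1, which is not a ribosomal protein. In that fit 58.5% of all tested genes were positive, 10.8% were higher and 4.61% lower at an unadjusted p under 0.05.

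Rpl3, a large subunit protein whose loop reaches the peptidyl transferase centre, had the smallest p among the members. It was at 610, 678, 710, 714, 678, 620 and 720 FPKM in BPS replicates 1, 2, 3, 4, 5, 6 and 8, and at 606, 426, 648, 623, 493.3, 376, 501 and 468 FPKM in vehicle replicates 1 to 8. All BPS libraries were above the vehicle mean of 518 FPKM and 5 of 7 were above the highest vehicle library, but vehicle replicates 3 and 4 lay inside the BPS range. The log2 change was 0.40 ± 0.115 (SE) with adjusted p 0.0969 (limma), and 0.38 ± 0.165 with adjusted p 0.593 without the 4 BPS libraries that stood apart. The authors' deposited table gave Rpl3 a log2 ratio of 0.31 and a q of 0.0361, the single member past 0.05 there. The lowest Rpl3 values, 376 and 426 FPKM, were those of vehicle replicates 6 and 2, where muscle markers were highest, and with muscle score as covariate the change was 0.33 ± 0.116 with adjusted p 0.261.

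Rps26, a small subunit protein at the exit of the mRNA channel, was the single member whose groups did not overlap, where 0.469% of all tested genes were higher without overlap and 0.107% lower. Its levels were 1549, 1572, 1660, 1550, 1590, 1601 and 1631 FPKM in BPS replicates 1, 2, 3, 4, 5, 6 and 8, and 1299, 1466, 1401, 1423, 1519, 1292, 1354 and 1221 FPKM in vehicle replicates 1 to 8. The gap between the lowest BPS and the highest vehicle library was small beside the SD of 99.0 FPKM among vehicle libraries. The log2 change was 0.22 ± 0.0710 (SE) with adjusted p 0.117 (limma), and it was 0.22 again, with adjusted p 0.611, without the 4 libraries that stood apart.

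**Figure D3:**
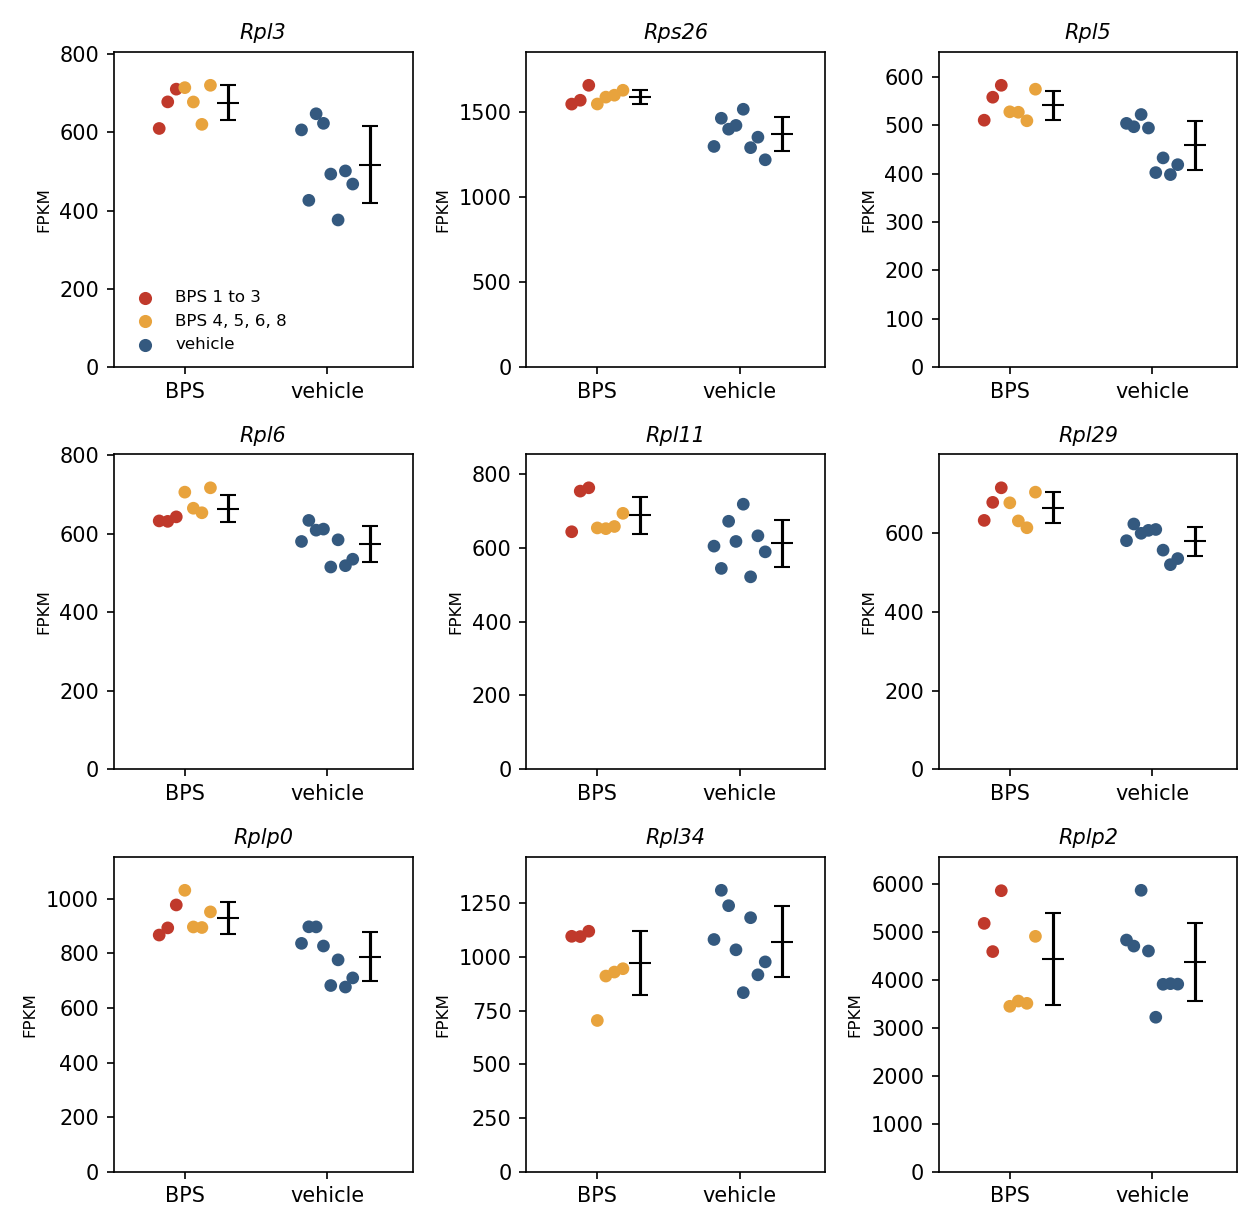
FPKM of 9 members in each library, BPS on the left, with the mean and SD of each group in black and axes that start at 0. Rps26 is the one member of the 9 whose groups do not overlap (lowest BPS 1549, highest vehicle 1519), Rpl34 has 4 BPS libraries at 704 to 944 FPKM below the other 3 at 1094 to 1119 FPKM, and Rplp2 spans a like range in both groups.

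Rpl5 and Rpl11 form a particle with 5S ribosomal RNA that joins the large subunit and, when it is free, binds the p53 regulator Mdm2. Rpl5 was at 509 to 583 FPKM in BPS (median 528) and 398 to 522 FPKM in vehicle libraries (median 463), with 5 of 7 BPS libraries above the highest vehicle library. Its log2 change was 0.25 ± 0.0809 (SE) with adjusted p 0.119 (limma). Rpl11 was at 643 to 762 FPKM in BPS (median 657) and 521 to 717 FPKM in vehicle libraries (median 610), a change of 0.17 ± 0.0824 with adjusted p 0.226 (limma). The groups overlapped for both genes.

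The stalk proteins recruit elongation factors to the large subunit: Rplp0 is its base, and Rplp1 and Rplp2 bind to it in pairs. With all libraries Rplp0 had the highest change of the 3. It was at 867 to 1031 FPKM in BPS (median 897) and 677 to 897 FPKM in vehicle libraries (median 801), a log2 change of 0.25 ± 0.0856 (SE) with adjusted p 0.129 (limma). Rplp1 was at 1985 to 3070 FPKM in BPS (median 2525) and 2165 to 2969 FPKM in vehicle libraries (median 2603), a change of -0.050 ± 0.116. Rplp2 had a change of 0.014 ± 0.150. In BPS replicate 4 Rplp0 was the highest of all 15 libraries, at 1031 FPKM, while Rplp1 was the lowest, at 1985 FPKM. With BPS replicates 1 to 3 all 3 genes were positive, with changes of 0.22 for Rplp0, 0.11 for Rplp1 and 0.27 for Rplp2. The differences between the 3 genes were not tested. The coding sequence of Rplp0 is 954 bases long, and those of Rplp1 and Rplp2 are 345 and 348 bases long.

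Members grouped by their place in the ribosome pointed the same way with small values. Of 9 proteins around the exit tunnel, through which the nascent chain leaves, 8 were positive, with a median of 0.055 and 0 called. Of 8 genes listed for the decoding site or the mRNA path, 7 were tested and all 7 were positive, with a median of 0.063 and 0 called. Over all 77 canonical genes 84.4% were positive, with a median of 0.090. At an unadjusted p under 0.05 (limma) these 2 groups by place held 0 and 2 members, all higher, where 16.4% of all tested genes were higher.

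Further large subunit proteins with small p were Rpl6 and Rpl29. Rpl6 was at 631 to 717 FPKM in BPS (median 653) and 515 to 634 FPKM in vehicle libraries (median 582), a log2 change of 0.21 ± 0.0714 (SE) with adjusted p 0.121 (limma). Rpl29 was at 613 to 714 FPKM in BPS (median 676) and 519 to 622 FPKM in vehicle libraries (median 589), a change of 0.20 ± 0.0692 with adjusted p 0.128 (limma). For these 2 genes the groups overlapped by 1 or 2 libraries, all BPS libraries were above the vehicle mean, and over the 28 alternative settings the smallest adjusted p of either was 0.101 (limma).

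Rps6, Rps27a and Fau differed, with all libraries, by less than the spread between them. Rps6 had medians of 44.0 FPKM in BPS and 39.5 FPKM in vehicle, a change of 0.058 ± 0.0855 (SE, limma). Rps27a, which is made as a fusion with ubiquitin, was at 1083.9 to 1396 FPKM in BPS (median 1296) and 918 to 1445 FPKM in vehicle libraries (median 1246), a change of 0.069 ± 0.114. Fau, a fusion of the small subunit protein eS30 with a ubiquitin-like protein, had a change of 0.019 ± 0.134. Rack1, a scaffold on the small subunit, was at 455 to 566 FPKM in BPS and 347 to 502 FPKM in vehicle libraries, a change of 0.21 ± 0.0907 with adjusted p 0.191 (limma). Of the 19 members whose human genes are mutated in Diamond-Blackfan anemia, 15 were positive with a median of 0.087 and 0 were called. This is a share of 78.9%, against 84.4% of canonical genes. At an unadjusted p under 0.05 (limma) 2 were higher and 0 lower, where 18.2% of canonical and 16.4% of all tested genes were higher. For BPS replicates 1 to 3 all 19 were positive with a median of 0.20, where 97.4% of canonical genes were positive with a median of 0.17. In that fit 5 were higher and 0 lower at this p, where 19.5% of canonical and 5.2% of all tested genes were higher.

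Of the 4 members on the X chromosome, Rps4x and Rpl10 had their 3 highest values in BPS replicates 4, 5 and 8, libraries with fewer Y-linked transcripts, and they were named after their values were seen. This layout was not particular to the X chromosome. Rpl6, on chromosome 5, also had its 3 highest values there, at 706, 665 and 717 FPKM in BPS replicates 4, 5 and 8. Rps4x was at 1194, 1389 and 1406 FPKM in BPS replicates 1 to 3, at 1536, 1414, 1341 and 1681 FPKM in BPS replicates 4, 5, 6 and 8, and at 915 to 1396 FPKM in vehicle libraries. Rpl10 was at 1137 to 1212 FPKM in BPS replicates 1 to 3, at 1603, 1384, 1243 and 1463 FPKM in BPS replicates 4, 5, 6 and 8, and at 923 to 1337 FPKM in vehicle libraries. Their log2 changes were 0.32 ± 0.115 and 0.26 ± 0.103 (SE) over all libraries and 0.23 ± 0.155 and 0.11 ± 0.125 without those 4, with adjusted p 0.134 and 0.166 (limma, all libraries). The other two, Rpl36a and Rpl39, spanned like ranges in both groups. Rpl36a was at 822 to 1275 FPKM in BPS and 848 to 1271 FPKM in vehicle libraries, and Rpl39 was at 998 to 1396 FPKM in BPS and 986 to 1296 FPKM in vehicle libraries.

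The change ran with the length of the gene's coding sequence, and this lay in the BPS libraries that stood apart. Across the 77 canonical genes, Spearman's rho between the log2 change and coding length was 0.47 with all libraries and 0.049 with BPS replicates 1 to 3. These are descriptions across genes that share libraries, and genes are not independent replicates. The 27 shortest genes (78 to 408 coding bases) had a median change of 0.034, the 24 of middle length (411 to 567 bases) 0.085, and the 26 longest (579 to 1260 bases) 0.14. For BPS replicates 1 to 3 the medians were 0.14, 0.19 and 0.18. Library by library, rho between a gene's deviation from the vehicle mean and its coding length was 0.50, 0.59, 0.49 and 0.35 in BPS replicates 4, 5, 6 and 8, and 0.18, -0.14 and 0.13 in BPS replicates 1 to 3. It lay between -0.23 and 0.25 in the 8 vehicle libraries.

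**Figure D4:**
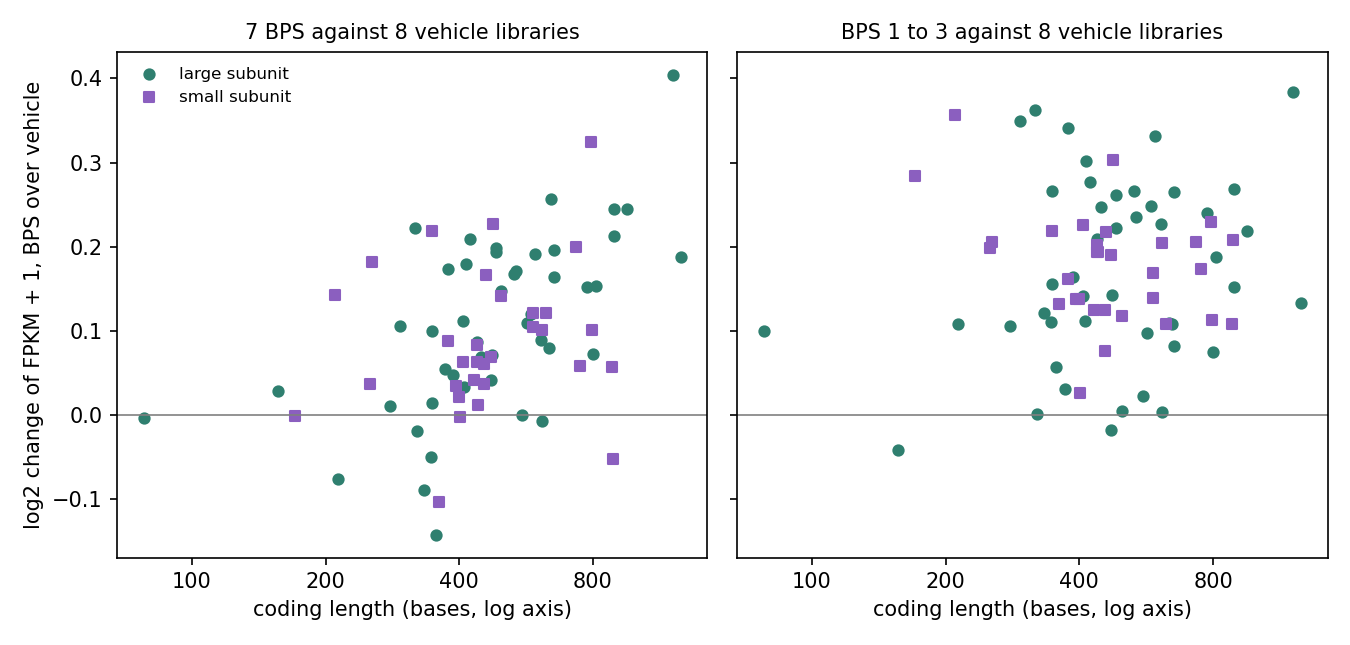
Each point is a canonical gene of the large (circles) or small (squares) subunit, with coding length on a log axis and the log2 change of BPS over vehicle on the vertical axis. With all 7 BPS libraries (left) the change runs with length (rho 0.47) and the short genes lie around 0, and with BPS replicates 1 to 3 (right) it does not (rho 0.049) and 75 of 77 genes are above 0.

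The 3 shortest canonical members differed among themselves. Rpl41, with 78 coding bases the shortest, was at 4153, 4907 and 4606 FPKM in BPS replicates 1 to 3, at 3716, 3548, 3917 and 4988 FPKM in BPS replicates 4, 5, 6 and 8, and at 3511 to 5142 FPKM in vehicle libraries. Rps29, with 171 coding bases and named after its values were seen, was at 2591, 2967 and 2836 FPKM in BPS replicates 1 to 3, at 1752, 1801, 2063 and 2333 FPKM in BPS replicates 4, 5, 6 and 8, against 2028 to 2838 FPKM in vehicle libraries. Its change was -0.0015 ± 0.130 with all libraries and 0.28 ± 0.125 (SE) without those 4, where the unadjusted p was 0.0417 and the adjusted p 0.597 (limma). BPS replicate 8 was higher than replicates 4 to 6 in both genes, and in Rpl41 it was also above replicates 1 to 3. Rpl39, with 156 coding bases, ran the other way: it averaged 1216 FPKM in BPS replicates 4, 5, 6 and 8 and 1115 FPKM in BPS replicates 1 to 3, and its change was 0.028 with all libraries and -0.042 without those 4. The 500 other genes with a mean of at least 205 FPKM, not matched in level, had the same sign of relation. Over them rho was 0.28 with all libraries and 0.20 with BPS replicates 1 to 3. Their medians were -0.19, -0.14 and -0.018 from short to long with all libraries, so they lay below those of the ribosomal protein genes in each class. Their long class ran to 7515 coding bases, against 1260 in the canonical genes. Whether RNA quality, library preparation or the make-up of the tissue takes part in this was not tested.

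Among the copies and variants, 3 of 9 changes were positive with all libraries, with a median of -0.13, and none was called (limma, adjusted p). With BPS replicates 1 to 3 the direction turned: 6 of 9 were positive, with a median of 0.074, against 51.9% of all tested genes. Again none was called. Rpl3l, which replaces Rpl3 in heart and skeletal muscle ribosomes, followed the muscle markers of each library. It was at 45.3, 2.92, 2.34, 6.13, 4.46, 27.3 and 0.46 FPKM in BPS replicates 1, 2, 3, 4, 5, 6 and 8, and at 27.0, 214, 13.3, 23.4, 0.60, 207, 1.89 and 74.1 FPKM in vehicle replicates 1 to 8. The 3 highest libraries, vehicle replicates 2, 6 and 8, were also those of highest Acta1, the actin of skeletal muscle, at 8024, 8220 and 2598 FPKM. The log2 change of Rpl3l was -1.80 ± 1.10 (SE) with adjusted p 0.328 (limma), and -0.13 ± 0.257 with muscle score as covariate. Summed over both genes, Rpl3 and Rpl3l were at 689 ± 30.3 FPKM in BPS (SD, n = 7) and 588 ± 67.3 FPKM in vehicle (SD, n = 8). Rpl3l made up 35.6% of this sum in 1 vehicle library and at most 6.91% in BPS libraries. In bulk tissue, fewer muscle cells and less of the transcript in each cell cannot be told apart.

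Rpl22l1, the paralog of Rpl22, was highest in 2 of these libraries. It was at 298 to 411 FPKM in BPS (median 358) and at 242 to 762 FPKM in vehicle (median 394), where replicates 2 and 6 had 762 and 699 FPKM and the other 6 had 242 to 411 FPKM. Its change was -0.20 ± 0.220 (SE, limma) and 0.049 ± 0.173 with muscle score as covariate. Rpl22 was at 116 to 151 FPKM in BPS and 105 to 158 FPKM in vehicle, with a change of 0.048 ± 0.0934. The elongation factors eEF1A1 and eEF1A2 form a like pair, in which the second is the form of mature muscle and neurons. Eef1a2, named after its values were seen, was at most 10.98 FPKM in BPS libraries and at 65.3 and 56.8 FPKM in vehicle replicates 2 and 6. Eef1a1 was at least 3315 FPKM in BPS libraries and at 2120 and 2050 FPKM in those 2 vehicle libraries. In the other 6 vehicle libraries it was at 2651 to 3376 FPKM. Among these, replicates 5 and 7, the vehicle libraries of fewest muscle markers, had 3056 and 2975 FPKM, also below every BPS library.

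**Figure D5:**
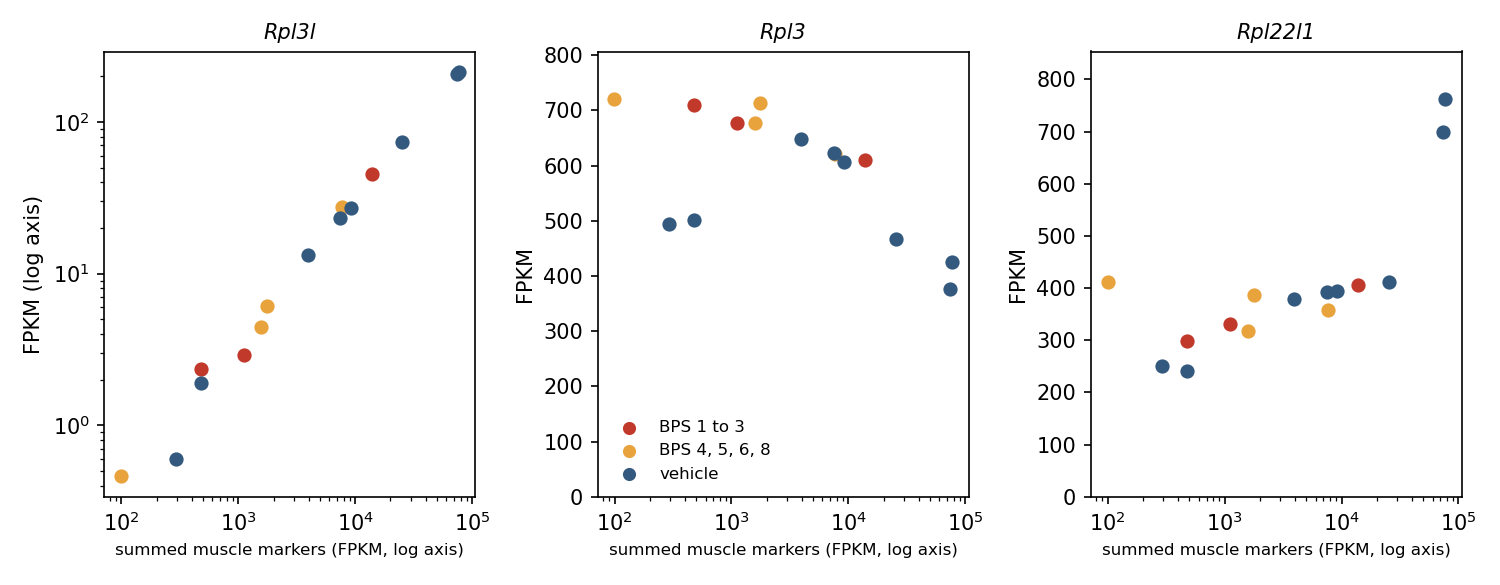
Each point is 1 library, with the summed FPKM of 13 skeletal muscle markers on a log axis and the FPKM of the gene on the vertical axis, which is a log axis for Rpl3l. Rpl3l runs with the markers from 0.46 to 214 FPKM, Rpl22l1 is high in the 2 vehicle libraries of most muscle markers (762 and 699 FPKM), and Rpl3 is lowest there (376 and 426 FPKM), while 2 vehicle libraries with few muscle markers also have low Rpl3 (493.3 and 501 FPKM).

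Rpl36al and Rps27l, close relatives of Rpl36a and Rps27 on other chromosomes, were the more abundant variants. Rpl36al was at 398 to 589 FPKM in BPS (median 511) and 513 to 685 FPKM in vehicle libraries (median 564), a log2 change of -0.18 ± 0.0940 (SE) with adjusted p 0.267 (limma). Rps27l, a target of p53 in human cells, was at 599, 682 and 763 FPKM in BPS replicates 1 to 3, at 458, 554, 601 and 546 FPKM in BPS replicates 4, 5, 6 and 8, against 569 to 738 FPKM in vehicle libraries. Its change was -0.13 ± 0.103 with all libraries and 0.067 ± 0.112 without those 4. Rps19bp1 had medians of 33.6 FPKM in BPS and 33.8 FPKM in vehicle, a change of -0.15 ± 0.0891 with adjusted p 0.325 (limma).

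The remaining variants were low. Rpl7l1 was at 31.2 to 39.3 FPKM in BPS and 24.9 to 38.4 FPKM in vehicle, and its parent Rpl7 at 1206 to 1406 FPKM in BPS and 1039 to 1297 FPKM in vehicle. Rpl39l, a form known from the mouse testis, was at 4.66 ± 2.68 FPKM in BPS (SD, n = 7) and 4.49 ± 1.94 FPKM in vehicle (SD, n = 8). Rpl32l was at 10.1 to 23.5 FPKM in BPS and 9.61 to 20.0 FPKM in vehicle. The groups overlapped in each, and over the alternative settings the smallest adjusted p of Rpl7l1, Rpl39l and Rpl32l was 0.261 (limma). Rpl37rt was at 15.04, 15.1 and 19.1 FPKM in BPS replicates 1 to 3, at 6.46, 6.80, 6.70 and 14.0 FPKM in BPS replicates 4, 5, 6 and 8, against 6.60 to 15.2 FPKM in vehicle libraries. The log2 change of Rpl37rt was 0.086 ± 0.239 (SE, limma) with all libraries. Without those 4 it was 0.62 ± 0.205, with adjusted p 0.410 (limma). The retrotransposed copy Rps27rt was listed at 3.19, 13.6 and 26.8 FPKM in BPS replicates 1 to 3, at 2.51, 6.34, 3.16 and 0 FPKM in BPS replicates 4, 5, 6 and 8, and at 6.58 to 13.5 FPKM in vehicle libraries. Its log2 change was -0.89 ± 0.523 with all libraries and 0.19 ± 0.437 (SE, limma) without those 4. With an identical coding sequence in Rps27, at 4174 to 5386 FPKM in BPS and 3300 to 4647 FPKM in vehicle, a value of this size is at most 0.562% of the pair's sum.

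Rpl34 and its pseudogene Rpl34-ps1 also split the BPS libraries. The pseudogene, which the selection of members leaves out, was at 355, 83.6, 56.9 and 307 FPKM in BPS replicates 4, 5, 6 and 8, and at 0.85 FPKM or less in each of the other 11 libraries. Rpl34 was at 704, 910, 929 and 944 FPKM in those 4, at 1095, 1094 and 1119 FPKM in BPS replicates 1 to 3, and at 833 to 1309 FPKM in vehicle libraries. The log2 change of Rpl34 was -0.14 ± 0.122 (SE) with adjusted p 0.478 (limma) with all libraries and 0.057 ± 0.140 without those 4. Summed, the pair was at 1085 ± 89.3 FPKM in BPS (SD, n = 7) and 1071 ± 164 FPKM in vehicle (SD, n = 8), so the difference between groups was smaller than the spread. The pseudogene made up 33.5% of the sum in BPS replicate 4. How the reads were divided between the 2 sequences, which differ at 2 coding bases, was not tested.

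Genes that build, feed or regulate the ribosome were set beside its proteins. Among 8 lists of such genes none was called in either direction over all libraries (limma, adjusted p), and their counts at an unadjusted p under 0.05 are given with each. Over all tested genes 16.4% were higher and 6.7% lower at that p and 58.5% were positive, and with BPS replicates 1 to 3 these shares were 5.2%, 2.88% and 51.9%. Of 41 translation initiation factors 27 were positive (median 0.085), with 14 higher and 4 lower at an unadjusted p under 0.05. With BPS replicates 1 to 3 there were 24 positive (median 0.031), 1 higher and 0 lower. Eif3b, a core subunit of initiation factor 3, was at 65.8 ± 3.45 FPKM in BPS (SD, n = 7) and 54.7 ± 4.59 FPKM in vehicle (SD, n = 8), a change of 0.27 ± 0.0647 (SE) with adjusted p 0.0789 (limma). Of 11 elongation factors 5 were positive (median -0.024), with 4 higher and 0 lower, and with BPS replicates 1 to 3 there were 7 (median 0.043), with 1 higher and 1 lower. Eef2, the translocase of elongation and a TOP mRNA, was at 624 ± 56.3 FPKM in BPS and 481 ± 60.4 FPKM in vehicle, a change of 0.38 ± 0.0931 with adjusted p 0.0789 (limma). Of 21 TOP mRNAs that are not ribosomal protein genes, a list that also holds Eef2, 15 were positive (median 0.17), with 8 higher and 0 lower, and with BPS replicates 1 to 3 there were 17 (median 0.15), with 2 higher and 0 lower. Of 16 genes that act on nascent chains or stalled ribosomes 9 were positive (median 0.015), with 3 higher and 2 lower, and with BPS replicates 1 to 3 there were 11 (median 0.035), with 0 higher and 0 lower. Gtpbp1, a relative of the elongation factors, was at 12.3 ± 2.03 FPKM in BPS and 9.31 ± 0.791 FPKM in vehicle (SD), a change of 0.35 ± 0.0890 with adjusted p 0.0812 (limma). Its adjusted p was 0.0498 without BPS replicate 2. It averaged 13.6 FPKM in BPS replicates 4, 5, 6 and 8 and 10.5 FPKM in BPS replicates 1 to 3, and with BPS replicates 1 to 3 alone its change was 0.16 with adjusted p 0.652 (limma).

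Genes for the production and control of ribosomes came next. Of 88 biogenesis factors 48 were positive with a median of 0.013, with 12 higher and 3 lower at an unadjusted p under 0.05, and for BPS replicates 1 to 3 there were 33, with a median of -0.044, 1 higher and 6 lower. Pes1, needed for large subunit rRNA processing, was at 21.8 ± 1.44 FPKM in BPS and 18.2 ± 1.67 FPKM in vehicle (SD), a change of 0.25 ± 0.0668 with adjusted p 0.0890 (limma), while Nip7, another large subunit factor, was at 8.30 ± 0.703 FPKM in BPS and 9.74 ± 0.605 FPKM in vehicle, a change of -0.21 ± 0.0613 with adjusted p 0.104 (limma). Of 15 RNA polymerase I genes 11 were positive (median 0.099), with 2 higher and 3 lower, and with BPS replicates 1 to 3 there were 6 (median -0.053), with 0 higher and 0 lower. Of 27 genes of the TOR pathway and TOP control 18 were positive (median 0.080), with 5 higher and 2 lower, and with BPS replicates 1 to 3 there were 12 (median -0.0084), with 1 higher and 2 lower. Rptor, the mTORC1 scaffold, had a change of 0.29 ± 0.0720 with adjusted p 0.0812 (limma), and Ddit4, an mTORC1 inhibitor induced by stress, was at 16.9 ± 5.47 FPKM in BPS and 9.42 ± 2.79 FPKM in vehicle, a change of 0.77 ± 0.199 with adjusted p 0.0876 (limma). Of 78 mitochondrial ribosomal protein genes 20 were positive (median -0.095), with 1 higher and 6 lower, with all libraries and 50 (median 0.051) with BPS replicates 1 to 3, against 68 and 81 of the 87 members. For the 7 genes whose changes are given here the adjusted p lay between 0.365 and 0.656 with BPS replicates 1 to 3 (limma). The differences between these lists were not tested.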

How the data were processed

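Members and gene lists were chosen with earlier results of these data known. Per the labels' protocols, poly(A) RNA from TRIzol extracts was taken up by oligo(dT) beads and random primed. The authors deposited FPKM per gene to 2 decimals, with HISAT2 2.1.0, Bowtie2, RSEM 1.3.1, DESeq2 1.4.5 and GRCm38.p6 per the submitters' processing notes. The sources used here do not give strandedness, so antisense and overlapping genes cannot be told apart. The authors' deposited log2 ratio, p-value and q-value were used only where named. FPKM is relative to the library's total, so a class that takes a larger share lowers the rest.

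Genes with at least 1 FPKM in 7 or more of the 15 libraries (12156) were tested on log2(FPKM + 1), which understates changes of low genes, with limma 3.58.1 (trend, robust; R 4.3.3) and Benjamini-Hochberg adjustment; no counts were available to test, and the steps were tested on simulated data. Each sample has its own mouse identifier in the labels, and p-values measure the spread between libraries. No identical columns were found. Coding lengths came from GENCODE (GRCm38) for 85 members, gene coordinates and promoters from RefSeq (GRCm38.p6), where 87 of 87 symbols matched, and alignments from Biopython 1.88. Named genes were the 6 members of smallest p in each direction, the 5 highest and 5 lowest by median FPKM, every variant with its parent, the 5S, stalk, kinase and ubiquitin members, and up to 3 genes of smallest p from each other translation list. Others are said to have been chosen after their values were seen, and a few named genes were left out of the text. The alternatives, 28 in all, covered scaling, filters, pseudocounts, variance settings, a replicate block, a muscle covariate, subsets of libraries and each library left out.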

Additional observations from a re-analysis of the deposited data

Results flagged for a closer look

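Of 64 sets of library values (named members in each group, and levels over the class), 1 had a library far from the rest by Dixon's criterion, which chance alone meets in about 1 of 20. Rpl36al was at 685.39 FPKM in vehicle replicate 2, with the next vehicle library at 584 FPKM. This was also a library of high muscle markers, Rpl3l and Rpl22l1. The part of muscle in it was not tested.

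Outside the members, the pseudogene Rpl34-ps1 reached 355.11 FPKM in BPS replicate 4, while vehicle libraries had at most 0.50 FPKM. It was also at 83.6, 56.9 and 307 FPKM in BPS replicates 5, 6 and 8. These 4 libraries are those with fewer Y-linked transcripts.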

How the results depend on the processing

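No member was called in any of the 28 alternatives, and Rpl3, Rps26, Rpl5, Rpl6, Rpl29 and Rplp0 were positive in all of them. The number of members higher at an unadjusted p under 0.05 (14) was 25 after quantile normalization and 7 after median scaling. It was 26 with FPKM rescaled to an equal sum and 9 with vehicle replicates 1, 3, 4, 5 and 7 only. For the 5 vehicle libraries, the replicate block and single libraries left out, the share of all tested genes was not counted. Whether the members differ from all tested genes in those fits is therefore unknown. The rho with coding length (0.47) was 0.24 after quantile normalization and 0.049 with BPS replicates 1 to 3. Genes called higher and lower over the whole table (42 and 8) were 17 and 2 with FPKM rescaled, 8 and 1 with no filter, 24 and 5 with a filter of 5 FPKM, 15 and 2 with a pseudocount of 5, 1 and 1 with the muscle covariate, 0 and 0 with the 5 vehicle libraries, 21 lower after median scaling and 1 lower with BPS replicates 1 to 3. Same-numbered libraries correlated from -0.42 to 0.58 in their deviations, so the numbers were not taken to pair samples, and with a replicate block, which leaves vehicle replicate 7 without a partner, 9 members were higher at an unadjusted p under 0.05 and 4 genes of the table were lower. Leaving out single libraries gave 0 (without BPS replicate 8 or vehicle replicate 8) to 59 (without BPS replicate 2) genes called higher, 1 to 23 lower, 9 (without BPS replicate 8) to 17 members at an unadjusted p under 0.05 and 0 to 1 other translation gene called (Gtpbp1). Some changes turned sign. With BPS replicates 1 to 3 Rps27rt was at 0.19, Rps27l at 0.067, Rpl34 at 0.057, Rpl41 at 0.10, Rpl39l at 0.37, Rpl36a at 0.0011, Rpl39 at -0.042 and Rplp1 at 0.11. After quantile normalization Rpl41 was at 0.22, Rpl36a at 0.062 and Rplp1 at 0.081. With FPKM rescaled Rpl41 was at 0.054, Rpl39l at 0.042, Rpl36a at 0.039 and Rplp1 at 0.0075. After median scaling Rplp2 was at -0.027, Rpl39 at -0.013 and Fau at -0.023. With the replicate block Rplp2 was at -0.0053, Rpl39l at 0.064, Rpl39 at -0.0023 and Fau at -0.027. With the muscle covariate Rpl37rt was at -0.0048, Rpl22l1 at 0.049 and Rpl36a at 0.0045. With the 5 vehicle libraries Rplp2 was at -0.016, Rpl22l1 at 0.13 and Rpl36a at 0.016, and with a pseudocount of 5 Rpl39l was at 0.0089. With 1 library left out, ranges that cross 0 were -0.038 to 0.074 for Fau, -0.068 to 0.038 for Rpl36a, -0.039 to 0.20 for Rpl37rt, -0.014 to 0.066 for Rpl39, -0.18 to 0.18 for Rpl39l, -0.044 to 0.038 for Rpl41, -0.10 to 0.0030 for Rplp1 and -0.058 to 0.078 for Rplp2. The causes were not tested. The subsets of libraries and the muscle covariate were chosen with earlier results known, and depth in reads is unknown.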
